A study of Mus musculus with 12 samples.

Results

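The transcriptional cyclin-dependent kinases (Cdks) and their cyclins were taken as the genes Cdk7, Cdk8, Cdk9, Cdk12, Cdk13, Ccnh, Ccnc, Ccnk, Ccnt1 and Ccnt2. The members were chosen by function and matched by symbol, and all 10 were present among the 52535 gene symbols of the count tables. They were followed in T-cell acute lymphoblastic leukemia (T-ALL) lines that each came from a different mouse with Dlx5, a homeobox gene, and an activated form of the Akt2 kinase as transgenes. Both transgenes are driven by the T-cell promoter of Lck and are carried by treated and control cells alike. Lines 240, 242 and 352 were each sequenced once after PKF118-310, a small molecule that blocks binding of β-catenin to Tcf proteins, and once as a control, which the study describes as placebo treated. Each group therefore held 3 libraries, 1 per line, as the labels read. A description in the study speaks instead of separately grown controls and treated cultures of each line, and under that reading the summed lanes would hold more than 1 culture. The lanes of line 352 differed beyond sampling noise over all genes, with a chi-square per degree of freedom of 2.05 after PKF118-310 and 2.01 in the control. The labels were followed, and the p-values rest on the variation among these lines, which have 1 library behind each value.

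Transcriptional Cdks phosphorylate RNA polymerase II and the factors that travel with it, and each needs a cyclin partner to be active. Cdk7 with cyclin H works inside the general factor TFIIH when a gene is started, Cdk8 with cyclin C sits on the Mediator complex, Cdk9 with a T-type cyclin forms P-TEFb, which releases paused polymerase, and Cdk12 and Cdk13 share cyclin K and act along the gene body. In human cells CDK12 is known for sustaining the expression of DNA repair genes. β-catenin/Tcf complexes switch on Wnt target genes through this same machinery, and small-molecule inhibitors of several of these kinases have been tried against T-ALL cells. The question put to the data was whether the transcripts of the machinery moved when β-catenin/Tcf binding was blocked.

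Promoters of 3 kinases are shown first because the inhibitor acts on a DNA-bound complex. RefSeq start sites on GRCm38.p6 gave an upstream window of 250 bases for 9 of the 10 members. GENCODE places some starts further upstream, so the windows of Cdk8, Cdk9, Cdk12, Ccnk and Ccnt1 overlap exons of their own gene. By the gene positions given below, the Cdk12 stretch lies inside its gene, as do the whole windows of Cdk9 and Ccnt1. The upstream sequences of Cdk13 and Cdk7, both on the minus strand, and a 30-base stretch of the Cdk12 window on the plus strand are printed 5′ to 3′. Capitals mark GGGCGG or its reverse complement CCGCCC, the GC box read by Sp-family factors.
Cdk12, chr11:98203088-98203117: ggggtGGGCGGccgtgagGGGCGGactcga
Cdk13, chr13:17805098-17805347: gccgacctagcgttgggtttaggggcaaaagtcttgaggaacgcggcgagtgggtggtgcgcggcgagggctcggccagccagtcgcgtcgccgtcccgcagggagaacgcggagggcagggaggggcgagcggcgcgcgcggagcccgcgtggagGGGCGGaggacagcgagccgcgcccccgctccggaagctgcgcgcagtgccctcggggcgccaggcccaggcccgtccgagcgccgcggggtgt
Cdk7, chr13:100730943-100731192: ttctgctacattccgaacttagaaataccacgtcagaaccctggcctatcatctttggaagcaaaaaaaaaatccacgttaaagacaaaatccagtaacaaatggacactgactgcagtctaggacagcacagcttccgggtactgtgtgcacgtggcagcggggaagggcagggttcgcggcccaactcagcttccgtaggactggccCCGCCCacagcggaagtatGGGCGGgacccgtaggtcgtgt

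GGGCGG was found on either strand in 8 of the 9 member windows, all but that of Ccnk, against 32.7% of all 32851 promoter windows. CTTCCGG, a core read by Ets-family factors, was found on either strand in 4 of the 9 (Cdk9, Cdk13, Cdk7 and Ccnt1), against 6.91% of all windows. CTTTGA, a core of the Tcf motif (TCAAAG on the other strand), was in 0 of the 9, against 13.8% of all windows. Matches of different motifs were counted separately, whether or not they overlapped. The G and C content was 73.2% for Cdk12, 76.8% for Cdk13 and 53.6% for Cdk7, against a median of 52.4% over all windows. These counts describe letters in short windows and say nothing of where a factor binds. By sequencing DNA pulled down with a Tcf7 antibody, the study reports binding at Cdk12 and names it a β-catenin target. Those binding data were not used here.

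Libraries differed in depth, which sets how firmly each value can be read. Total counts ran from 604984 in the PKF118-310 library of line 242 to 13766638 in that of line 352. That shallow library also had 11.8% of its counts on mitochondrial genes, against 1.84 to 3.10% in the other 5. All 14 T-lineage markers were detected, with summed levels of 2058 to 5306 CPM (counts scaled to a common library total) after PKF118-310 and 3122 to 5217 CPM in controls, although Cd2 and Cd5 stayed at or below 5.44 CPM. By line, the sum was 5306, 2246 and 2058 CPM after PKF118-310 in lines 240, 242 and 352, against 5217, 4855 and 3122 CPM in their controls, lower in lines 242 and 352. The 5 B-cell markers summed to 1.31 to 77.3 CPM after PKF118-310 and 0 to 0.494 CPM in controls. Pax5 supplied 73.9 CPM of the highest sum, in line 242, where Cd79b was at 0. In the same library Epcam stood at 18.9 CPM and Col1a1 at 24.0 CPM, and both were at or below 0.219 CPM in all controls. The 6 myeloid markers summed to 15.8 to 58.4 CPM after PKF118-310 and 11.6 to 47.4 CPM in controls, with Lyz2 at 0 in all libraries. The 5 erythroid markers summed to at most 0.317 CPM in any library, and the 8 epithelial and stromal markers to 45.6 to 72.1 CPM after PKF118-310 and 44.7 to 70.4 CPM in controls, mostly from Pecam1 except in the treated library of line 242. Whether these signals of line 242 have a part in the member values was not tested. All members were fitted with line 242 and without it, but the text does not give both values for every gene. The fit without line 242 was not chosen blind. Earlier results of these data had shown that its treated library is shallow and stands apart.

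All 10 transcripts were detected in every library. The PKF118-310 library of line 242 held the fewest counts, down to 15 for Ccnh, with 8 of the 10 members under 100. Levels are given as CPM scaled by edgeR's TMM factors, and as such CPM per kilobase of GENCODE exon where genes are compared with each other. Summed over the members, the level was 967, 1015 and 1007 CPM after PKF118-310 in lines 240, 242 and 352, against 907, 1053 and 927 CPM in their controls. The sum was higher after PKF118-310 in lines 240 and 352 and lower in line 242, and the groups overlapped. A gene's level in bulk RNA cannot tell fewer expressing cells from less RNA per cell.

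Per kilobase, Ccnk, the cyclin of Cdk12 and Cdk13, was the most abundant member, with a mean of 24.5 CPM per kb and a range of 21.3 to 28.2 over the 6 libraries. Cdk9 followed at 21.2 CPM per kb (14.2 to 25.3) and Ccnt1 at 19.9 (16.4 to 22.5). Ccnh averaged 15.97 CPM per kb (8.30 to 21.5), Cdk7 11.9 (8.34 to 15.6) and Ccnt2 11.5 (10.2 to 13.8). Cdk13 at 11.0 CPM per kb (8.64 to 15.2), Cdk12 at 10.1 (6.78 to 14.1), Cdk8 at 8.65 (6.81 to 10.03) and Ccnc at 7.34 (5.004 to 9.56) closed the order. Every neighbouring pair overlapped in range, so the order of neighbours is not set by these data, whereas the first and last were apart in every library. The long exon unions of Cdk12, 11730 bases, Cdk13, 13456 bases, and Ccnt2, 12345 bases, lower their values if shorter isoforms are used.

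**Figure D1:**
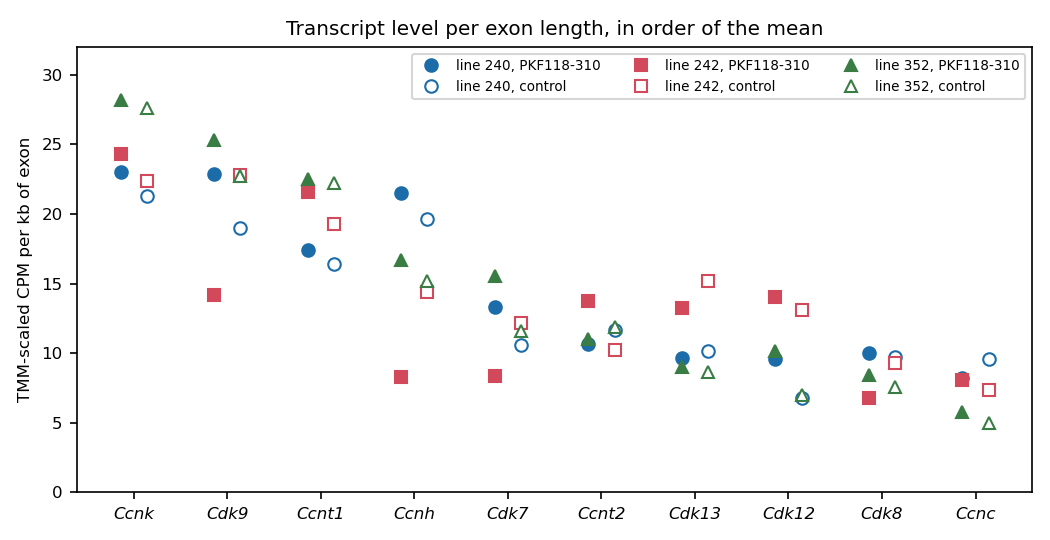
Levels of the 10 members in TMM-scaled CPM per kilobase of exon (vertical axis), in order of their mean over 6 libraries. Filled symbols are PKF118-310 and open symbols control, with 1 symbol shape and color per line. Ccnk lies between 21.3 and 28.2 and Ccnc between 5.004 and 9.56, with overlapping ranges between neighbours.

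Cdk12 had the largest log2 fold change of the 10 members over 3 lines and over lines 240 and 352. The gene (chromosome 11, 98203059 to 98278504, plus strand, mm10) encodes a kinase of the elongation phase. It had 112, 165 and 119 CPM after PKF118-310 in lines 240, 242 and 352, against 79.6, 154 and 81.9 CPM in their controls. Each treated library was above its own control, but the groups overlapped, because the control of line 242 exceeded the treated libraries of the other lines. Within a line, the log2 ratio reached 0.49 in line 240 (95% interval from the 2 counts 0.27 to 0.72) and 0.54 in line 352 (0.43 to 0.65), with 0.10 in line 242 (-0.23 to 0.42). These intervals compare single libraries and cover counting error only. Lines 240 and 352 had nearly the same ratio, and line 242, with 96 counts in the treated library, had an interval that reached across 0.

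Over the 3 lines, Cdk12 did not pass (log2 fold change 0.42 ± 0.15 SE, edgeR quasi-likelihood adjusted p = 0.842). In that fit 0 of the 10 members were called higher and 0 lower, where the calls over all 10331 genes tested were 0.00% in each direction. At an unadjusted p below 0.05 in edgeR's test, 1 of the 10 was found, Cdk12, against 5.52% of all genes. With limma voom and sample weights, which lowered the weight of both libraries of line 242, Cdk12 passed over the same 3 lines (0.50, adjusted p = 0.0371).

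Over lines 240 and 352 alone, Cdk12 rose (log2 fold change 0.52 ± 0.11 SE, edgeR quasi-likelihood adjusted p = 0.0102). It was the only one of the 10 members called, with 1 higher and 0 lower. Over all 11760 genes tested in these 2 lines 5.01% were called higher and 5.92% lower, so 1 call among 10 genes does not set the members apart. The call was lost without the line as a block (adjusted p = 0.9997) and with DESeq2 (adjusted p = 0.124), while the fold change stayed at 0.52 and 0.51. With line 240 or line 352 left out in place of line 242, edgeR did not call it either (adjusted p = 0.9999 and 0.9997). Those 2 fits called only 0.0590% and 0.0294% of all genes.

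**Figure D2:**
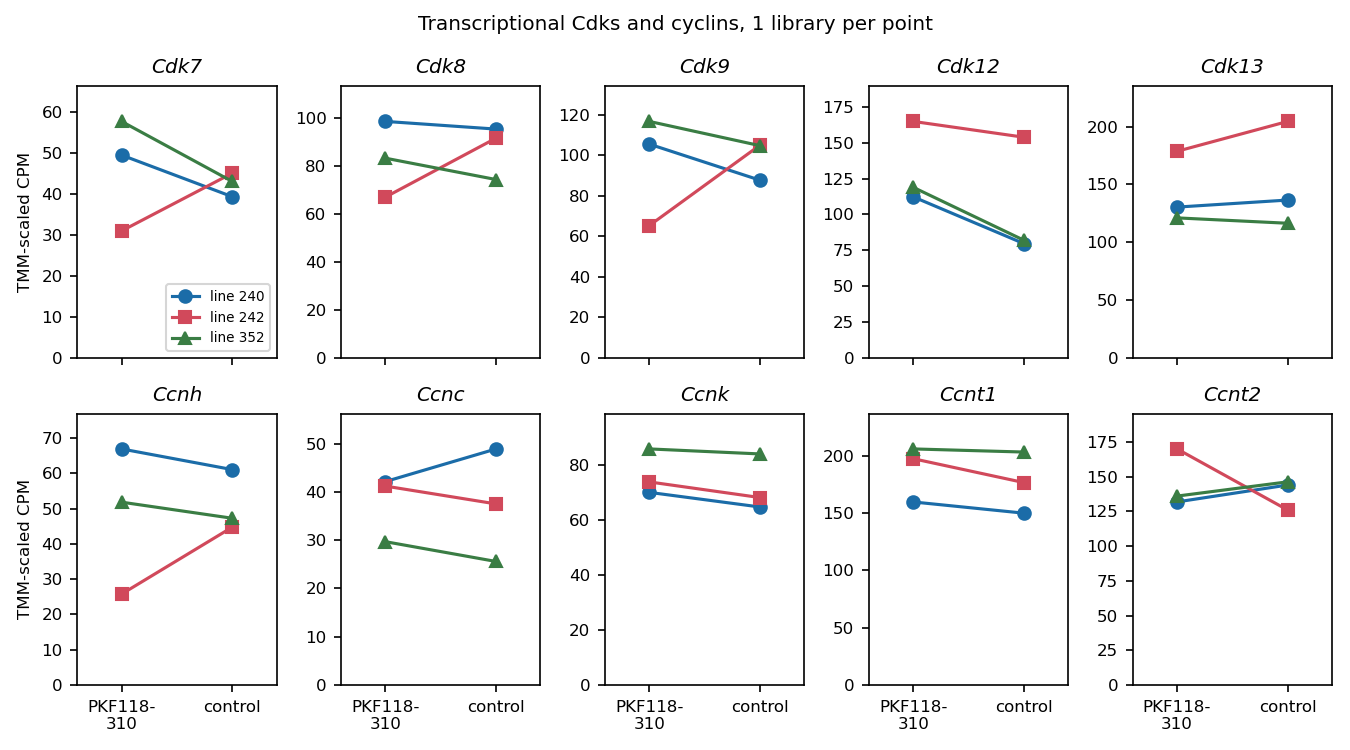
TMM-scaled CPM of each member (vertical axes start at 0) after PKF118-310 (left) and in the control (right), with a line joining the 2 libraries of 1 cell line. Cdk12 is higher after PKF118-310 in all 3 lines, while Cdk7, Cdk8, Cdk9 and Ccnh are higher in lines 240 and 352 and lower in line 242.

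Cdk13 (chromosome 13, 17710315 to 17805097, minus strand), the closest relative of Cdk12 and bound to the same cyclin, stayed near its control level. It had 130, 179 and 121 CPM after PKF118-310 in lines 240, 242 and 352, against 136, 204 and 116 CPM in their controls. The treated libraries were slightly below their controls in lines 240 and 242 and slightly above in line 352, and the groups overlapped throughout. The fold change on the log2 scale was -0.03 ± 0.14 SE over 3 lines (edgeR quasi-likelihood adjusted p = 0.990) and 0.00 ± 0.10 SE over lines 240 and 352 (adjusted p = 0.998).

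The balance between the paralogs was read within each library, where scaling between libraries plays no part. Cdk12 made up 46.3% of the counts of Cdk12 and Cdk13 after PKF118-310 in line 240, against 36.8% in the control, with 95% Wilson intervals of 42.8 to 49.8% and 33.7 to 40.1%. The share was 49.6% after PKF118-310 in line 352 (47.9 to 51.2%), against 41.3% in the control (39.5 to 43.2%). In line 242 it was 48.0% after PKF118-310 (41.2 to 54.9%), against 42.9% in the control (40.1 to 45.8%). All 3 treated libraries had a higher share than all 3 controls, and the intervals of a line's 2 libraries overlapped in line 242 alone. The log2 ratio of Cdk12 to Cdk13 changed by 0.56, 0.30 and 0.48 in lines 240, 242 and 352, a mean of 0.45 ± 0.14 (SD, n = 3). An exact 2-sided sign-flip permutation test over the 3 lines gave p = 0.25, the smallest p that 3 lines allow.

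**Figure D3:**
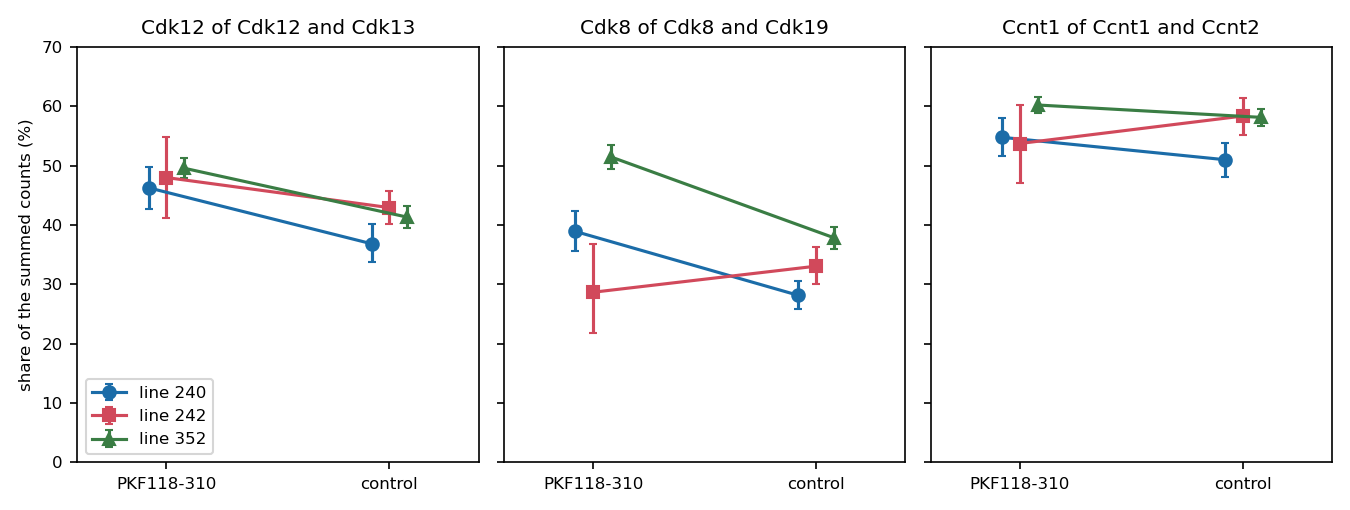
Share of the first gene in the summed counts of a paralog pair (vertical axis, percent) after PKF118-310 (left) and in the control (right) of each line, with 95% Wilson intervals for counting error. The share of Cdk12 lies at 46.3 to 49.6% after PKF118-310 and 36.8 to 42.9% in controls, while the other pairs move in opposite directions between lines.

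Ccnk (chromosome 12, 108179579 to 108203359, plus strand) encodes cyclin K, the partner of both kinases. It had 70.1, 73.9 and 85.9 CPM after PKF118-310 in lines 240, 242 and 352, against 64.7, 68.2 and 84.0 CPM in their controls. The differences were small beside those between lines, and no counting interval within a line excluded 0. Over 3 lines its log2 fold change was 0.12 ± 0.14 SE (edgeR quasi-likelihood adjusted p = 0.904). The log2 ratio of the summed kinases to Ccnk changed by 0.05, -0.18 and 0.24 in the 3 lines (exact sign-flip permutation p = 0.75).

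Cdk7 (chromosome 13, 100702631 to 100730939, minus strand), the kinase of TFIIH that also activates the cell cycle Cdks, differed between lines in its direction. It had 49.4, 30.9 and 57.7 CPM after PKF118-310 in lines 240, 242 and 352, against 39.3, 45.0 and 43.0 CPM in their controls. The treated libraries were higher in lines 240 and 352 and lower in line 242, where the treated value rests on 18 counts. Its log2 ratios were 0.33 in line 240 (0.0039 to 0.66), -0.54 in line 242 (-1.34 to 0.17) and 0.42 in line 352 (0.27 to 0.58). Over 3 lines its log2 fold change was 0.18 ± 0.22 SE (edgeR quasi-likelihood adjusted p = 0.904). Over lines 240 and 352 it came to 0.39 ± 0.13 SE (adjusted p = 0.0805). For these 2 lines limma voom gave 0.40 with an adjusted p of 0.0410, in a fit that called 15.6% of all genes.

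Ccnh (chromosome 13, 85189408 to 85223469, plus strand), which encodes the cyclin of Cdk7, differed in direction between the same lines. It had 66.9, 25.8 and 51.8 CPM after PKF118-310 in lines 240, 242 and 352, against 61.0, 44.7 and 47.2 CPM in their controls. The treated library of line 242, with 15 counts, was the lowest of the 6. Over lines 240 and 352 the log2 fold change was 0.13 ± 0.12 SE (edgeR quasi-likelihood adjusted p = 0.552). The log2 ratio of Cdk7 to Ccnh changed by 0.20, 0.25 and 0.29 in the 3 lines, a mean of 0.25 ± 0.05 (SD, n = 3), with an exact sign-flip permutation p = 0.25, the smallest possible. That closeness did not hold between sequencing lanes, since the mean was 0.43 from the first lane alone and 0.09 from the second.

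Cdk9 (chromosome 2, 32705784 to 32713076, minus strand), the kinase of P-TEFb, had 106, 65.3 and 117 CPM after PKF118-310 in lines 240, 242 and 352, against 87.7, 105 and 105 CPM in their controls. Line 242 again stood opposite to the others, and here the counting interval excluded 0 in all 3 lines. Its log2 ratios were 0.27 in line 240 (0.05 to 0.49) and 0.16 in line 352 (0.05 to 0.26), with -0.68 in line 242 (-1.21 to -0.20). Over 3 lines the log2 fold change was -0.01 ± 0.21 SE (edgeR quasi-likelihood adjusted p = 0.999), and over lines 240 and 352 it was 0.20 ± 0.11 SE (adjusted p = 0.261).

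Of the cyclins of Cdk9, Ccnt1 (chromosome 15, 98538689 to 98570923, minus strand) had 160, 198 and 206 CPM after PKF118-310 in lines 240, 242 and 352, against 150, 177 and 203 CPM in their controls. Each treated library was a little above its control and the groups overlapped. Ccnt2 (chromosome 1, 127774164 to 127808061, plus strand) had 132, 170 and 136 CPM after PKF118-310, against 144, 126 and 146 CPM in the controls of the same lines. It was lower in lines 240 and 352 and higher in line 242, the reverse of Cdk9. Its log2 ratios were -0.13 in line 240 (-0.31 to 0.06) and -0.10 in line 352 (-0.20 to -0.01), with 0.43 in line 242 (0.10 to 0.75). Ccnt1 made up 54.8, 53.7 and 60.2% of the T-type cyclin counts after PKF118-310 in lines 240, 242 and 352, against 51.0, 58.4 and 58.1% in their controls. The ratio of Cdk9 to both cyclins changed by 0.28, -0.97 and 0.19 on the log2 scale (exact sign-flip permutation p = 1).

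Cdk8 (chromosome 5, 146231230 to 146302874, plus strand), the Mediator kinase, had 98.6, 67.0 and 83.2 CPM after PKF118-310 in lines 240, 242 and 352, against 95.4, 91.6 and 74.3 CPM in their controls. Its partner Ccnc (chromosome 4, 21727701 to 21759922, plus strand) had 42.2, 41.2 and 29.7 CPM after PKF118-310, against 48.9, 37.5 and 25.6 CPM in the controls of the same lines. In both genes the groups overlapped and the direction differed between lines. The log2 fold change over lines 240 and 352 was 0.11 ± 0.11 SE for Cdk8 and 0.03 ± 0.15 SE for Ccnc (edgeR quasi-likelihood adjusted p = 0.583 and 0.934). The ratio of Cdk8 to Ccnc changed by 0.26, -0.59 and -0.05 on the log2 scale (exact sign-flip permutation p = 0.75).

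Cdk19 encodes the paralog that can take the place of Cdk8 on Mediator, and it fell over lines 240 and 352 (log2 fold change -0.65 ± 0.10 SE, edgeR quasi-likelihood adjusted p = 0.0025). It had 155, 167 and 78.5 CPM after PKF118-310 in lines 240, 242 and 352, against 243, 185 and 122 CPM in their controls. Every treated library was below its control, though the groups overlapped, and over 3 lines the gene did not pass (-0.46, adjusted p = 0.842). Cdk8 made up 38.9% of the counts of the pair after PKF118-310 in line 240 (35.6 to 42.3%), against 28.2% in the control (25.8 to 30.6%). The share was 51.5% in line 352 after PKF118-310 (49.4 to 53.5%), against 37.9% in the control (36.0 to 39.7%). Line 242 went the other way, with 28.7% after PKF118-310 (21.7 to 36.8%) and 33.1% in the control (30.1 to 36.2%), and the exact sign-flip permutation p over the 3 lines was 0.5.

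**Figure D4:**
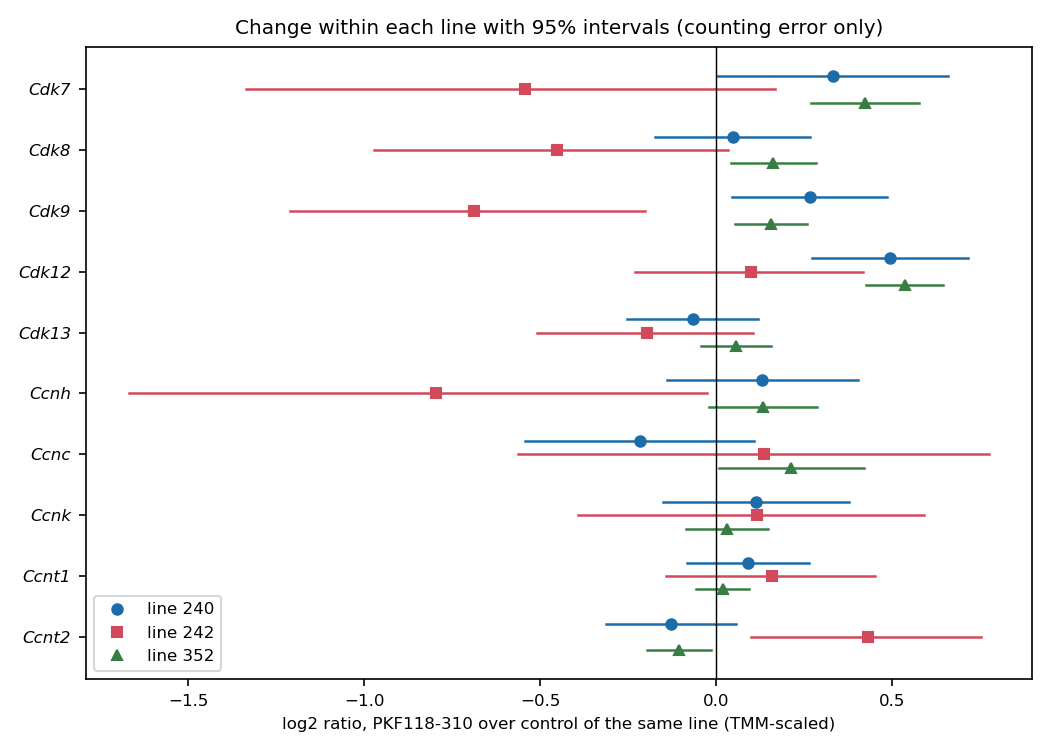
Log2 ratio of PKF118-310 over control within each line (horizontal axis) for the 10 members, with exact 95% intervals from the 2 counts. Intervals of line 242 are the widest. Those of Cdk12 lie above 0 in lines 240 and 352, and those of Cdk9 lie above 0 in these lines and below 0 in line 242.

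Across the 10 members, 3 were higher after PKF118-310 in all 3 lines (Cdk12, Ccnk and Ccnt1), against 13.9% of all genes tested, and 0 were lower in all 3, against 18.8%. The other 7 changed direction between lines. No member had groups without overlap, with 0 higher against 2.95% of all genes and 0 lower against 3.15%. The median log2 fold change of the members was 0.08 over 3 lines and 0.09 over lines 240 and 352. Within a line, the SD of the members' log2 ratios was 0.22, 0.42 and 0.19 in lines 240, 242 and 352, against 0.52, 1.32 and 0.47 for all genes tested, many of which have lower counts.

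Between the lines, irrespective of treatment, 0 of the 10 members differed at the threshold, against 5.32% of all genes. Cdk12 came nearest (edgeR quasi-likelihood adjusted p = 0.0891), with 165 and 154 CPM in line 242, against 79.6 to 119 CPM in lines 240 and 352. Cdk13 was also highest in line 242, with 179 and 204 CPM in line 242 and 116 to 136 CPM elsewhere (adjusted p = 0.103). Ccnc was lowest in line 352, at 29.7 and 25.6 CPM, against 37.5 to 48.9 CPM in the other lines (adjusted p = 0.183). With line 242 left out, 4 members differed between lines 240 and 352 (Ccnh, Ccnc, Ccnk and Ccnt1), against 44.7% of all genes.

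The genes whose log2 CPM followed that of Cdk12 most closely over the 6 libraries were Actg1, a cytoplasmic actin (Pearson r = 0.988, Spearman rho = 0.886), Yipf6 (r = 0.986, rho = 1) and Epc1 (r = 0.977, rho = 0.886). They were the top 3 of 7390 genes averaging at least 20 CPM. With 6 libraries in 3 pairs and so many genes searched, these values are a description only.

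The factors around the kinases were described in 9 further lists. In the fit of 3 lines 0 genes of any list were called in either direction, so the counts that follow are those over lines 240 and 352, to be read against the 5.01% and 5.92% of all genes called higher and lower. The median log2 fold change over all genes in that fit was near 0, at -0.01.

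Of the 8 genes of TFIIH and the Cdk-activating kinase, 1 rose, 0 fell and 7 did not pass, with a list median of 0.28. Gtf2h1, a core subunit of TFIIH, had 136, 87.6 and 107 CPM after PKF118-310 in lines 240, 242 and 352, against 87.0, 131 and 67.9 CPM in their controls. It was higher in lines 240 and 352 and lower in line 242, and rose over the 2 lines (0.65 ± 0.11 SE, edgeR quasi-likelihood adjusted p = 0.0034). The helicase gene Ercc3 had a log2 fold change of 0.37 (adjusted p = 0.0801), Gtf2h2 0.37 (0.120) and Gtf2h3 0.30 (0.192). Mnat1, the assembly factor that joins Cdk7 and cyclin H, stood at -0.15 ± 0.13 SE (adjusted p = 0.513).

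Of 30 Mediator genes, 2 rose, 0 fell and 28 did not pass, with a median of 0.10. Med22 of the head module had 114, 113 and 111 CPM after PKF118-310 in lines 240, 242 and 352, against 65.5, 85.4 and 68.5 CPM in their controls. All treated libraries were above all controls, as for 2.95% of all genes tested over 3 lines. Med22 rose over lines 240 and 352 (0.74 ± 0.11 SE, edgeR quasi-likelihood adjusted p = 0.0019), although over 3 lines it did not pass (0.68, adjusted p = 0.842). Med17, the head scaffold, rose as well (0.44, adjusted p = 0.0398), and its treated libraries were also all above all controls. Med29 (0.49, adjusted p = 0.207) and Med11 (-0.53, adjusted p = 0.254) did not pass. Of the other transcription and splicing Cdks and cyclins, 0 of 5 rose and 1 fell, Cdk19, with Cdk11b at 0.34 (adjusted p = 0.0519), Cdk10 at 0.34 (0.2492) and Ccnl1 at -0.09 (0.633).

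P-TEFb is held inactive by a ribonucleoprotein and drawn to genes by recruiting factors such as the super elongation complex. Of the 4 genes of the inhibitory particle, 0 were called in either direction. Hexim1, its inhibitor subunit, had 38.7, 36.1 and 59.3 CPM after PKF118-310 in lines 240, 242 and 352, against 32.9, 35.6 and 46.1 CPM in their controls, higher in each line but with overlapping groups (0.31 ± 0.13 SE, edgeR quasi-likelihood adjusted p = 0.164). Mepce stood at 0.18 (adjusted p = 0.383), Hexim2 at -0.13 (0.857) and Larp7 at 0.00 (0.993). Of 12 tested recruiters and super elongation genes out of 14 listed, 3 rose and 0 fell, with a median of 0.04.

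Ell2, an elongation factor of the super elongation complex, had 0.634, 18.9 and 213 CPM after PKF118-310 in lines 240, 242 and 352, against 0.247, 0 and 126 CPM in their controls. Line 352 alone expressed it at a level near the kinases in both groups, and its call (0.76 ± 0.14 SE, adjusted p = 0.0058 by edgeR's quasi-likelihood test) rests on that line, since line 240 held 2 counts after PKF118-310 and 1 in the control. Eaf1 (0.42, adjusted p = 0.0328) and Mllt1 (0.42, adjusted p = 0.0330), which join the same complex, also rose, and both were lower than the control in line 242. The bromodomain gene Brd2 had 0.33 (adjusted p = 0.0959).

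Among 15 pausing and elongation factors, 1 rose and 0 fell. It was Supt6, a histone chaperone that travels with the polymerase (0.37, edgeR quasi-likelihood adjusted p = 0.0452), and Tcea1 (0.36, adjusted p = 0.0556), Leo1 (0.40, 0.0635) and Cdc73 (0.33, 0.0932) did not pass. Among 8 phosphatases and associated factors that act on the polymerase tail, 0 rose and 1 fell, Ctdsp2 (-0.41, adjusted p = 0.0396). Ctdsp1 (-0.31, adjusted p = 0.111), Ctdspl (-0.31, 0.176) and Rprd1b (0.31, 0.142) did not pass. The treated libraries of Ctdsp1 were all below all controls.

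Of 11 DNA repair genes that depend on CDK12 in human cells, 1 rose, 2 fell and 8 did not pass, with a median of -0.06 over lines 240 and 352 and -0.17 over 3 lines. Atm, the double-strand break kinase, had 146, 51.5 and 108 CPM after PKF118-310 in lines 240, 242 and 352, against 99.8, 83.2 and 76.2 CPM in their controls. It rose over lines 240 and 352 (0.53 ± 0.11 SE, edgeR quasi-likelihood adjusted p = 0.0082) and was lower in line 242. Fanci of the Fanconi anemia pathway fell (-0.49, adjusted p = 0.0305), as did the replication stress kinase gene Atr (-0.38, adjusted p = 0.0408), while Mdc1 stood at -0.34 (adjusted p = 0.0577). In line 242 Atr was higher after PKF118-310, at 94.5 CPM against 70.4 CPM in the control. The calls of this list went in both directions, and any link to the level of Cdk12 was not tested.

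The Cdks and cyclins of the cell cycle were counted for comparison, and 1 of 12 rose and 1 fell over lines 240 and 352. Ccnb2, a mitotic cyclin, had 122, 79.0 and 83.1 CPM after PKF118-310 in lines 240, 242 and 352, against 169, 154 and 161 CPM in their controls. All treated libraries were below all controls, as for 3.15% of all genes tested over 3 lines. Some listed genes that are not named were separated in the same way. Ccnb2 fell over lines 240 and 352 (-0.74 ± 0.12 SE, edgeR quasi-likelihood adjusted p = 0.0035). Ccnd2, a cyclin of the first gap phase, had 0.634, 20.6 and 25.8 CPM after PKF118-310, against 0.247, 0.625 and 5.41 CPM in the same lines' controls. At these low levels it was called higher over lines 240 and 352 (2.22 ± 0.32 SE, edgeR quasi-likelihood adjusted p = 0.0015). That call rests on line 352, with 373 counts after PKF118-310 and 74 in the control, since line 240 held 2 and 1. Ccna2 (-0.35, adjusted p = 0.0743) and Ccne2 (-0.29, 0.164) did not pass. The cell cycle list had a median of -0.06 over lines 240 and 352, against 0.09 for the transcriptional list. Over 3 lines the medians were -0.34 and 0.08, with a cell cycle median of -0.93 within line 242, and the difference between the lists was not tested.

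**Figure D5:**
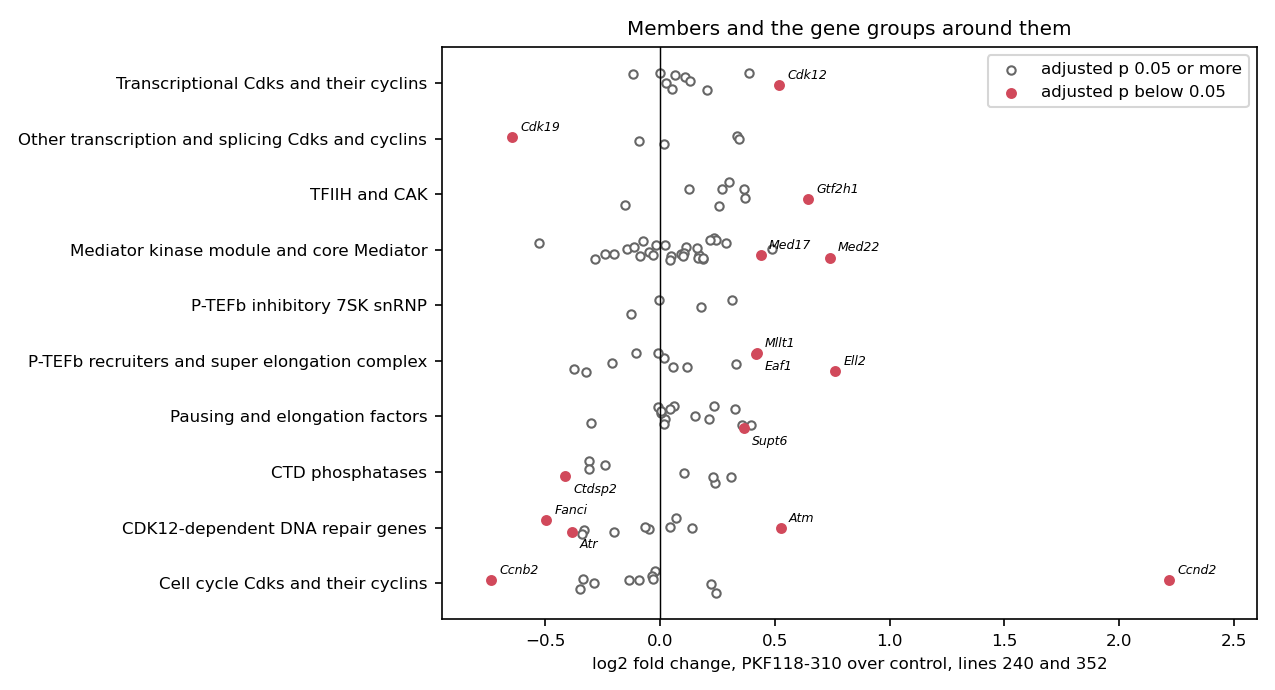
Log2 fold change of PKF118-310 over control in lines 240 and 352 (horizontal axis) for the members and 9 lists of neighbouring factors (rows), 1 point per gene. Red points passed an adjusted p of 0.05 in edgeR and are named. Cdk12, at 0.52, is the only such member.

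Reads that fit more than 1 gene could blur a few of these values. Exons of Ccnt1 share 695 bases with the antisense gene 9330020H09Rik, which held 8, 3 and 87 counts after PKF118-310 in lines 240, 242 and 352, against 7, 10 and 22 in their controls. Exons of Ccnc share 276 bases with Tstd3 on the other strand, and those of Ccnh 12 bases with Rasa1. Copies resembling stretches of transcript exist for Cdk12 (Gm14208, 92.6% identity over 674 bases), Ccnh (Gm12955, 90.7% over 970) and Cdk7 (Gm7496, 90.9% over 1037), and these 3 listed copies held at most 1 count in any library. Cdk7 also resembles a stretch of Suco (90.3% over 619 bases), which held 248, 65 and 834 counts after PKF118-310 in lines 240, 242 and 352, against 306, 210 and 878 in their controls. Cdk7 is uncertain to the extent that reads were split between these genes. How reads with several matches were treated is not given in the sources used here.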

How the data were processed

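The counts deposited by the authors are whole reads per gene symbol with no normalization, in 12 files, 1 per library and lane. The submitters' notes name HISAT2, HTSeq, edgeR and mm10, and the study's methods name TopHat as the aligner. Tool versions and the gene annotation were not stated. Poly(A) RNA was made into stranded libraries. Lanes of a library were summed, since over the members they agreed within sampling noise (chi-square p of 0.0894 to 0.982 over 10 genes). For line 352, lanes differed beyond that noise over all genes. File positions are in mm10, with starts counted from 1.

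Counts were tested in R 4.3.3 with edgeR 4.0.16 (filterByExpr, TMM, quasi-likelihood F test, line as block) over 10331 genes in 3 lines and 11760 in lines 240 and 352, with Benjamini-Hochberg adjusted p below 0.05 as threshold. Each line came from 1 animal, so its libraries are a pair. Their deviations from the group means correlated at 0.67, 0.30 and 0.79 in lines 240, 242 and 352. Within-line ratios used a prior count of 2. Their intervals, like the Wilson intervals and the floor of 3 counts, cover counting error only. Without TMM factors, 3 counts equal 4.96 CPM in the treated library of line 242 and at most 0.949 CPM in the others. Exon lengths and overlaps came from GENCODE vM21, promoters from RefSeq. On simulated counts of the 3-line design over 10331 genes, 49% of 2-fold and 93% of 4-fold changes were recovered, with 13 false calls. For lines 240 and 352 over 11760 genes it was 83% and 93%, with 6 false calls. No gene's simulated spread exceeded the common estimate, so these shares may overstate recovery in the real data. Changes below 2-fold were not simulated.

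The members, the lists and the fit of lines 240 and 352 were chosen with earlier results of these data known. Besides the members, the text names up to 4 genes per list with the smallest p over lines 240 and 352 and at least 5 CPM, the 3 genes most like Cdk12, any list gene passing over 3 lines, and Hexim1 and Mnat1 in any case. Not every gene under this rule is reported. Gene 9330020H09Rik, Tstd3, Rasa1 and the near copies were named for overlap or likeness to members. Alternatives were no block, DESeq2 1.42.0 size factors or test, library totals, edgeR's likelihood ratio test, limma 3.58.1 voom with sample weights, no filter or 10 counts in every library, single lanes, and each line left out. Halving the counts of line 352, and leaving out lines from the partner ratios, were added after the data were seen. Tests assume 1 library per line and group.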

Additional observations from a re-analysis of the deposited data

Results flagged for a closer look

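Cdk9 and Ccnt2 had within-line ratios whose counting intervals excluded 0 in opposite directions in different lines. For Cdk9 the log2 ratio of PKF118-310 over control was 0.27 and 0.16 in lines 240 and 352, but -0.68 in line 242. For Ccnt2 it was 0.43 in line 242 and -0.10 in line 352. Each value compares 2 libraries, and the difference between lines was not tested. The PKF118-310 library of line 242 held 38 counts of Cdk9 and 99 of Ccnt2, with 11.8% of its counts on mitochondrial genes.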

How the results depend on the processing

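Cdk12 stayed higher after PKF118-310 in every alternative run, at 0.33 to 0.52 on the log2 scale over 3 lines (past the threshold in 2 of 14 alternatives) and at 0.44 to 0.60 over lines 240 and 352 (9 of 11, adjusted p of 5.02e-04 to 0.9997). Over 3 lines 0 members were called, but 1 with voom (7.75% of all genes). With lines 240, 242 and 352 left out in turn it was 0, 1 and 0, against 0.0590, 10.9 and 0.0294% of all genes. Over lines 240 and 352 the count was 1, but 0 without the replicate block, 0 with the DESeq2 test and 2 with voom (Cdk7 and Cdk12). Over all genes of these lines, the calls were 589 higher and 696 lower, but 0 and 0 without the block, 113 and 155 with DESeq2, and 860 and 974 (15.6% in all) with voom. Over 3 lines they were 0 and 0 (570 genes at unadjusted p below 0.05), but 35 and 10 with DESeq2, 56 and 29 with edgeR's likelihood ratio test, 327 and 474 with voom, and 260 and 52 with no filter. The block changed no other call of a member. Between lines, 0 members differed, but 1 with the DESeq2 likelihood ratio test (16.1% of all genes). With lines 240, 242 and 352 left out in turn it was 0, 4 and 0, against 7.29, 44.7 and 2.05% of all genes. The Cdk7 to Ccnh change was 0.43 from lane 1 and 0.085 from lane 2.

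Fold changes near 0 changed sign, all of them without passing the threshold, and the cause was not tested. Over 3 lines, voom gave 0.10 for Cdk8, 0.18 for Cdk9, 0.12 for Ccnh and -0.068 for Ccnt2. Lane 1 gave 0.0013 for Cdk13 and -0.044 for Ccnc, and lane 2 gave 0.016 for Cdk8, 0.052 for Cdk9 and 0.13 for Ccnh. Cdk9 stood at 0.0030 with library totals and 8.55e-04 with 10 counts in every library, and Ccnc at -0.0052 with no filter. With single lines left out, the ranges were -0.030 to 0.39 for Cdk7, -0.15 to 0.11 for Cdk8, -0.22 to 0.20 for Cdk9, -0.097 to 5.69e-04 for Cdk13, -0.25 to 0.13 for Ccnh, -0.028 to 0.19 for Ccnc and -0.12 to 0.17 for Ccnt2. Over lines 240 and 352, Cdk13 stood at -0.0084 without the block, -0.010 with DESeq2 size factors, -0.014 with the DESeq2 test, -0.011 with no filter, -8.85e-04 with 10 counts in every library and -0.0078 with line 352 halved. Ccnc stood at -0.051 without the block, -0.0035 with the DESeq2 test and -0.10 from lane 1, which also gave -0.060 for Ccnh and -0.018 for Ccnk. All 90 alternative within-line ratios moved by less than their counting error. Depth limits line 242 most, where 8 of the 10 members had under 100 counts after PKF118-310.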
